A study of Mus musculus with 21 samples.

Results

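Sorted olfactory sensory neurons (OSN) that carried Mex3a joined to an RNA-editing domain were compared with neurons that carried the editing domain alone. The comparison uses 9 of the 21 libraries of the series, chosen by their labels: 6 libraries of the fusion (MexHT) and 3 of the domain alone (HT). All came from mCherry-positive cells of the main olfactory epithelium. Both kinds of mice carried the drivers gg8tTA and OMPtTA. MexHT mice also had the transgene tetO-Mex3a_HyperTRIBE_mCherry, and HT mice had tetO-HyperTRIBE_mCherry. A further 8 mCherry-negative libraries of the same kinds of mice, 5 MexHT and 3 HT, are used where the sorted fractions are compared. No age, sex or number of mice per library is given in the labels, so the p-values measure the spread between these libraries.

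OSN are replaced throughout life from basal stem cells, and a young neuron first expresses axon growth genes and later the cilia and transduction proteins that detect odors. Mex3a is an RNA-binding protein with KH domains and a RING finger, and is known from stem and progenitor cells. HyperTRIBE is the catalytic part of the editing enzyme ADAR and changes single bases in RNAs that its fusion partner contacts. In these mice the transactivator tTA, made from gg8 (active in immature OSN) and OMP (active in mature OSN) promoters, switches on the tetO transgene. Only gene levels are described here, in TPM, a measure of transcripts scaled by gene length and library.

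MexHT libraries held 7425287 to 12443133 recovered counts and HT libraries 8654585 to 11175654, and 15010 to 15671 genes reached 1 TPM in MexHT against 15843 to 18006 in HT (exact permutation p = 0.0119, two-sided, adjusted over 4 library values 0.0238). HT 2 stood apart, with 18006 genes at 1 TPM and 435 such genes among 3014 that were under 0.5 TPM in the other 8 libraries. MexHT 5 and 6 stood apart from MexHT 1 to 4 on the second principal component (19.6% of the variance, scores 56.4 and 27.5 against -31.7 to -22.2), while the first (46.3%) separated HT (62.3 to 68.1) from MexHT (-48.0 to -17.7). Xist, the noncoding RNA of the inactive X chromosome, was 58.4 to 139.8 TPM in the MexHT libraries and 0.1, 60.3 and 0.1 TPM in HT 1, 2 and 3. The construct and the Xist level thus largely moved together. Y-linked transcripts were present in all libraries but MexHT 6. MexHT 1 to 5 and HT 2 thus held Xist, at 58.4 TPM or more, together with Y-linked transcripts. All 17 mature OSN markers were tested, 13 were called lower and none higher (summed level 2527 to 8719 TPM in MexHT, 12769 to 19151 in HT), and 10 of 15 immature OSN markers were called higher (6498 to 7674 against 3898 to 4270.2 TPM). Of the other cell types, macrophage and leukocyte markers had 14 of 16 called lower and none at 0 in all 9 libraries, with sums of 407 to 779 TPM in MexHT against 2152, 1799 and 6650 TPM in HT 1, 2 and 3. Sustentacular markers summed to 231 to 709.6 TPM in MexHT and to 1634, 418 and 451 in HT. Microvillous cell markers (2 of 6 called lower) summed to 54.4 to 119 TPM in MexHT and 124 to 160.0 TPM in HT, and those of horizontal basal cells (1 of 5) to 15.7 to 31.7 and 41.6 to 41.98 TPM, both without overlap. Granulocyte markers summed to 160.0 to 464 TPM over both groups, against 6423 to 16838 TPM in mCherry-negative cells. Macrophage and leukocyte markers summed to 1269.6 to 3678 TPM in those cells. HT 1 and HT 2 lay within that range, HT 3 above it and every MexHT library below it. In bulk libraries, fewer cells of a type and less RNA per cell cannot be told apart.

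A mean of 1 TPM or more was reached by 16067 genes, and 5907 of them (36.8%) passed an adjusted p of 0.05 in limma on log2(TPM + 1). There were 3202 genes (19.9%) higher and 2705 (16.8%) lower in MexHT. The median difference over all tested genes was 0.03 on the log2 scale. Large changes were more often falls: 758 called genes were at least 2-fold higher and 1463 at least 2-fold lower, and 80 and 285 were past 4-fold. For 6167 genes (38.4%) the 6 MexHT and 3 HT libraries did not overlap. The count was lower without any 1 HT library, at 3745 without HT 1, 3886 without HT 2 and 5026 without HT 3. Leaving out 1 of 3 HT libraries also lowers the power of the test, and the part of each library was not tested. Of those calls, 3674, 3806 and 4536 were among the 5907, none with the opposite sign. With the Xist level in the model 329 genes passed, 323 of them shared, all in the same direction.

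**Figure D1:**
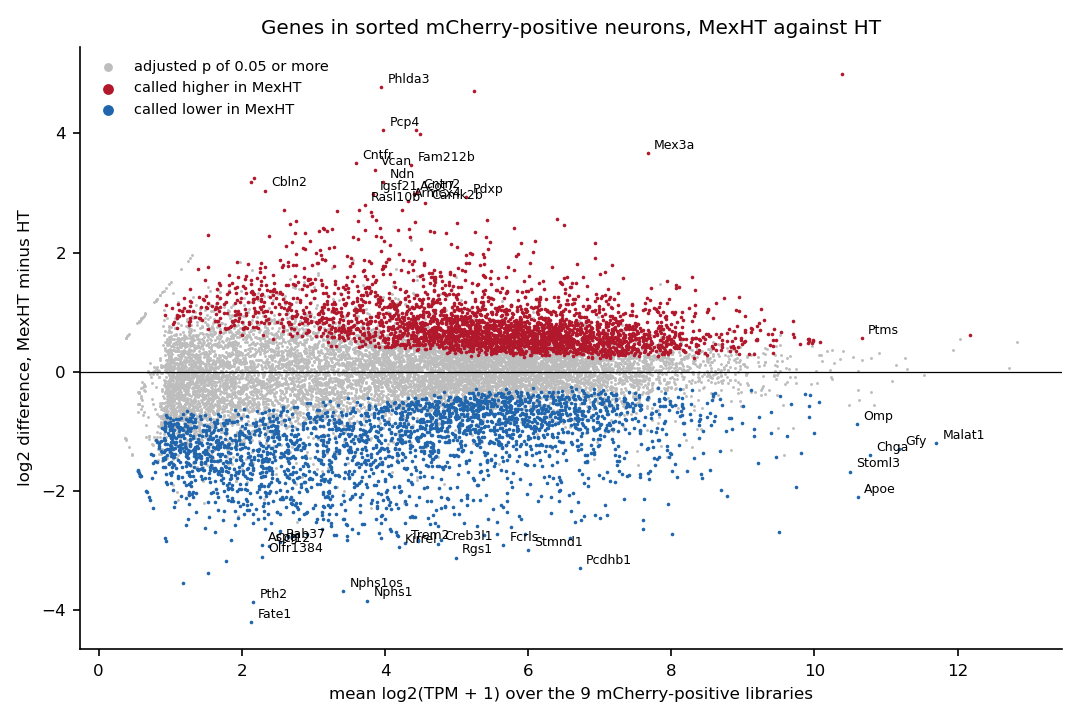
Each point is 1 of 16067 genes, with the mean log2(TPM + 1) over the 9 mCherry-positive libraries on the horizontal axis and the log2 difference, MexHT minus HT, on the vertical axis. Red and blue points are the 3202 genes called higher and the 2705 called lower. Labels mark the genes with the largest changes or levels, among them Phlda3 at 4.78 and Fate1 at -4.19.

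Mex3a itself, the gene carried by the fusion, was 23.96, 32.1 and 61.5 TPM in HT 1, 2 and 3 and 328 to 1271 TPM (median 348) in MexHT. All MexHT libraries were above all HT libraries, and MexHT 5 and 6, at 1271 and 679 TPM, were above the other 4. The log2 difference was 3.67 (SE 0.45, limma adjusted p 0.000406; exact permutation p = 0.0119, adjusted 0.0238 over 4 library values). Reads of the transgene and of the endogenous gene cannot be told apart in these values.

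Predicted genes and small RNA loci were passed over in naming genes (292 of 4669 that met the other conditions). The largest rise among the others was that of Phlda3, a p53-induced protein that binds membrane lipids and restrains Akt signaling. It was 0.383, 0.582 and 1.22 TPM in HT and 22.6 to 98.3 TPM (median 39.5) in MexHT, so the groups were far apart. Its log2 difference was 4.78 (SE 0.42, adjusted p 9.58e-05). With only 2 to 5 counts per HT library, the ratio of summed counts per depth was 80.4, with a 95% exact interval of 43.6 to 168 for counting error. Pcp4, a small calmodulin-binding peptide, was 2.63, 0.444 and 1.68 TPM in HT and 21.9 to 55.6 TPM (median 43.6) in MexHT (log2 difference 4.05, SE 0.33, adjusted p 8.62e-05). HT had 1 to 6 counts of Pcp4 per library, and the ratio per depth was 26.1 (14.1 to 54.8).

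Several of the other 12 genes with the largest rises encode surface or matrix proteins of growing neurons. Cntn2, the axonal adhesion molecule also called TAG-1, was 2.89, 3.49 and 8.11 TPM in HT and 25.1 to 52.7 TPM (median 46.5) in MexHT (log2 difference 3.02, SE 0.30, adjusted p 0.000142). Every MexHT library was above every HT library, and MexHT 5 was the lowest of the 6 at 25.1 TPM. Igsf21, an immunoglobulin-domain adhesion protein, rose by 2.98, and Cntfr, the receptor subunit that binds ciliary neurotrophic factor, by 3.501. Vcan, the matrix proteoglycan versican, was 1.17, 1.22 and 4.73 TPM in HT and 9.51 to 62.7 TPM (median 39.5) in MexHT, with MexHT 5 and 6 lowest at 9.51 and 14.5 TPM. Ndn (necdin, an imprinted regulator of neuronal differentiation) and Cbln2 (a secreted synapse organizer) were also lowest in MexHT 5 and 6. Ndn stood at 8.37 and 9.80 TPM and Cbln2 at 1.36 and 1.65 TPM in MexHT 5 and 6, against medians of 49.6 and 14.5 TPM over the 6 libraries. The adjusted p was 0.00552 for Ndn and 0.0161 for Cbln2, and the Cbln2 call was lost without HT 1 or HT 2 and with voom, as were those of Ndn and Cntfr with voom.

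The remaining large rises were of signaling and metabolic genes. Camk2b, a subunit of the calcium/calmodulin kinase CaMKII, was 6.55, 6.83 and 3.44 TPM in HT and 31.2 to 53.99 TPM (median 50.3) in MexHT (log2 difference 2.83, SE 0.24, adjusted p 9.58e-05). The groups did not overlap, and MexHT 5 and 6 were the lowest MexHT libraries. Pdxp, the phosphatase chronophin that acts on vitamin B6 phosphate and cofilin, rose by 2.93, the small GTPase gene Rasl10b by 2.81, Armcx4 by 2.86 and Fam212b by 3.47. Acot7, a neuronal acyl-CoA thioesterase, rose by 2.98 and was highest in MexHT 5 and 6, at 128 and 87.8 TPM, against 20.8 TPM in MexHT 1.

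The largest falls took Fate1, which RefSeq classes as a transcribed pseudogene, and the neuropeptide gene Pth2 to the limit of detection. Fate1 was 35.4, 47.6 and 14.9 TPM in HT, while every MexHT library had at most 3 counts, so its level was at least 30.4-fold lower. Pth2, the gene of tuberoinfundibular peptide, was 48.4, 34 and 10.1 TPM in HT and at least 17.5-fold lower in MexHT by the same floor. HT 3 was the lowest HT library for both genes.

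Adhesion genes were also among the largest falls. Nphs1 (nephrin) was 110.3, 142 and 30.5 TPM in HT and 1.97 to 10.6 TPM (median 3.96) in MexHT (log2 difference -3.84, SE 0.58, adjusted p 0.00113). Its antisense partner Nphs1os differed by -3.68, and the sources used here do not say whether counting used strand, so the pair cannot be counted separately. Kirrel, whose product binds nephrin in the same membrane complex, was 58.02, 82.4 and 72.3 TPM in HT and 5.52 to 12.2 TPM (median 9.11) in MexHT (log2 difference -2.94, SE 0.24, adjusted p 8.62e-05). The protocadherin gene Pcdhb1 was 507, 584 and 376 TPM in HT and 33.5 to 63.5 TPM (median 49.4) in MexHT, with a log2 difference of -3.29 and no MexHT library above 63.5 TPM. Creb3l1, a transcription factor held in the endoplasmic reticulum (ER) membrane, fell by 2.88, Stmnd1 by 2.99, the asparaginase gene Aspg by 2.91 and Rab37, a GTPase of secretory vesicles, by 2.85. Olfr1384 fell by 3.10, and reads of close receptor copies may be split in its counts.

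The other 4 of the 15 largest falls are genes of macrophages and other leukocytes. Fcrls, a microglial Fc-receptor-like gene, was 137, 128 and 400.1 TPM in HT and 11.7 to 44.7 TPM (median 24.9) in MexHT (log2 difference -2.90, adjusted p 0.00106). The lipid receptor gene Trem2 was 54.7, 39.97 and 173 TPM in HT and fell by 2.88, the chemokine gene Ccl12 by 2.92, and the G protein regulator Rgs1 by 3.12. HT 3 had the highest value of Fcrls, Trem2 and Ccl12 and also the highest leukocyte marker sum, 6650 TPM against 1799 and 2152 TPM in HT 2 and HT 1. The part of those cells in the falls was not tested.

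**Figure D2:**
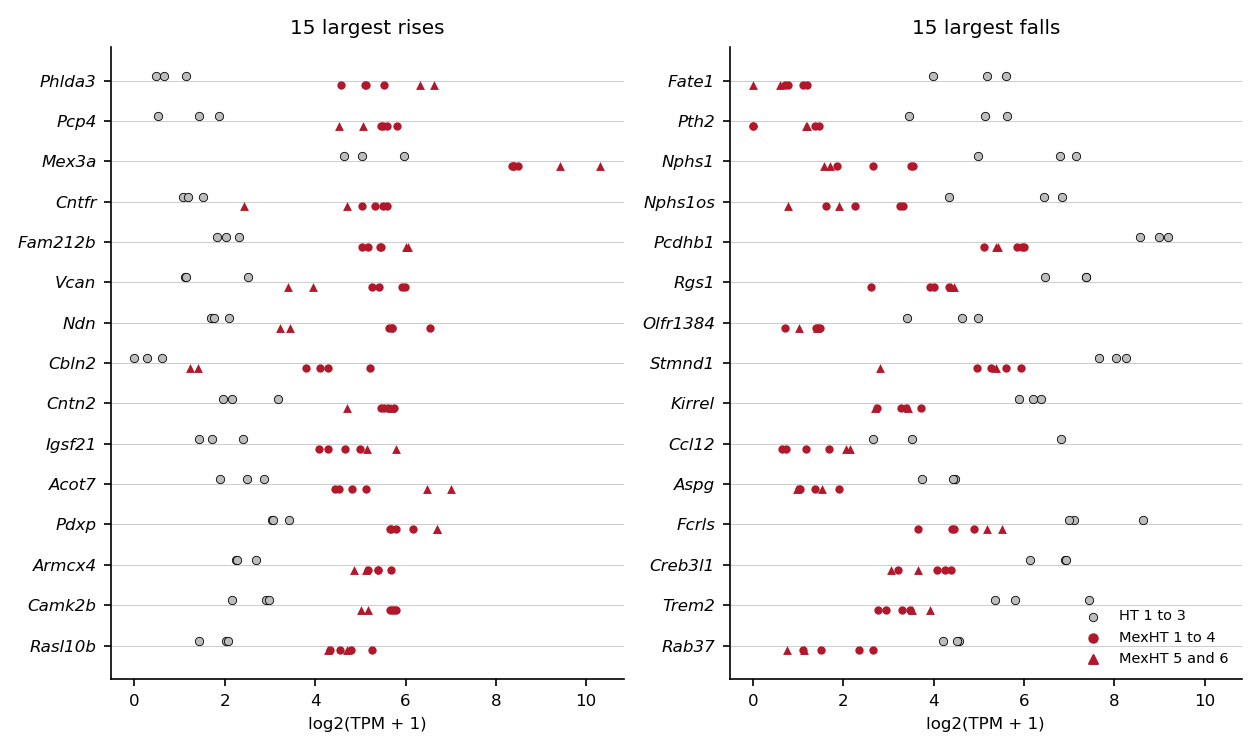
Levels of the 15 genes with the largest rises (left) and the 15 with the largest falls (right) as log2(TPM + 1) in each of the 9 libraries, grey circles for HT, red circles for MexHT 1 to 4 and red triangles for MexHT 5 and 6. The groups do not overlap for any of the 30 genes, which their choice required, and the triangles are the lowest MexHT points for Vcan, Ndn and Cbln2.

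By absolute level, the largest gains were in cytoskeletal, chromatin-associated and ribosomal genes. Ptms, the acidic nuclear protein parathymosin, was 1207, 1141 and 1400.0 TPM in HT and 1656 to 2019 TPM (median 1864) in MexHT (log2 difference 0.57, SE 0.13, adjusted p 0.00716). Stmn1, the tubulin-binding protein stathmin, went from 565 to 1028 TPM on average, Tubb5 from 381 to 850.3 TPM, Tubb2b from 240.2 to 593 TPM, and Arhgdig, which codes for an inhibitor of small GTPases, from 276 to 666 TPM. Cfl1 (cofilin), Myl6 (a myosin light chain), Rpl41 and Rplp0 rose by 0.54, 0.503, 0.53 and 0.87 on the log2 scale. Of these, Tubb5 and Cfl1 lost the call without HT 1 or HT 2 (Cfl1 also without HT 3, Tubb5 without MexHT 4 or 6), Rpl41 without HT 1 or 2 and Myl6 without HT 1. Several of these genes have processed copies in the genome, and the treatment of multi-mapped reads is not given in the sources used here.

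The largest losses in TPM were in products of mature OSN, in 1 nuclear RNA and in 2 genes abundant in macrophages. Apoe, the lipid carrier apolipoprotein E, was 3136, 2709 and 8201 TPM in HT and 729.7 to 1359 TPM (median 954) in MexHT (log2 difference -2.10, SE 0.34, adjusted p 0.00152), and Ctsd, a lysosomal protease, was 749, 646 and 2304 TPM and 187 to 351 TPM (median 263). For both, HT 3 was the highest library, as it was for the leukocyte markers. The nuclear noncoding RNA Malat1 was 6293, 6153 and 4997 TPM in HT and 1819.6 to 3352 TPM (median 2571) in MexHT, a log2 difference of -1.19 (adjusted p 0.00254). Among neuronal products, the Golgi protein Gfy fell by 1.30, the cilium protein gene Stoml3 by 1.67 and the secretory granule protein Chga by 1.40. The membrane protein Stom fell by 1.93, the amyloid precursor-like protein Aplp2 by 1.36 and the calcium-binding protein S100a5 by 2.69. Omp, the marker protein of mature OSN, was 2593, 2704 and 1785 TPM in HT and 682 to 1597 TPM (median 1396) in MexHT, a smaller log2 difference of -0.88 (adjusted p 0.0271). MexHT 5 was the lowest library for all of these neuronal genes. The Omp call was lost without HT 1 or HT 2, and that of S100a5 without any 1 of the 3 HT libraries.

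In the machinery that makes proteins, the share called higher was above the 19.9% of all genes in each list. Of 39 ribosome biogenesis factors, which assemble ribosomes in the nucleolus, 24 were called higher and 0 lower, with a median log2 difference of 0.49. Among them Noc4l rose from 16.2 to 35.1 TPM, Rrp9 by 0.86 and Gar1 by 0.83. Mitochondrial ribosomal proteins had 41 of 77 higher and 0 lower (median 0.43), led by Mrpl35 at 1.003, Mrps11 at 0.95 and Mrpl22 at 0.94. Of 22 cytosolic tRNA synthetases, which charge tRNAs with amino acids, 11 were higher and 0 lower (median 0.36; Tars 0.74, Yars 0.72, Wars 0.65). Initiation factors had 26 of 52 higher and 4 lower (median 0.37). Those higher included Eif3f, a subunit of the scaffold factor eIF3, from 167 to 276 TPM, and Eif2ak3, the ER stress kinase PERK, from 65.9 to 111 TPM. Those lower included Eif2ak2, the kinase PKR that senses double-stranded RNA (-1.36), Eif5a2 (-1.35) and the cap-binding protein Eif4e3 (-0.98). Elongation and release factors had 5 of 14 higher, with Eef1g at 0.86 and Eef1b2 at 0.66. Without HT 1, 2 and 3 the counts called higher were 7, 11 and 14 for ribosome biogenesis and 27, 24 and 33 for mitochondrial ribosomes. They were 15, 16 and 21 for initiation, and 2, 3 and 3 for elongation (also 3 without MexHT 3 or 4). Over all genes the counts also fell, from 3202 to 1950, 2003 and 2699 higher and from 2705 to 1795, 1883 and 2327 lower. The same totals apply to the later lists. With the Xist level in the model the medians were 0.46, 0.42, 0.29 and 0.40 for the first 4 lists, with 0, 0, 1 and 0 genes passing. Over all 47 pathway lists that model called 0 to 6 genes of a list higher and 0 to 2 lower. Counts of 3 or fewer calls in a list moved by up to 3 genes when 1 library was left out.

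RNA-binding proteins had calls in both directions, and RNA-processing lists had mostly calls higher. Of 48 RNA-binding proteins known from neurons, 14 were higher (29.2%) and 9 lower (18.8%), against 19.9% and 16.8% of all genes. Celf5, a splicing and translation regulator, was 3.46, 4.41 and 6.85 TPM in HT and 16.96 to 31.3 TPM (median 27.4) in MexHT (log2 difference 2.20, adjusted p 0.000215), and the Mex3a relative Mex3b and the splicing regulator Khdrbs2 rose by 2.07 and 1.95. Zfp36, which speeds the decay of mRNAs with AU-rich elements, fell from 185 to 49.98 TPM, its relative Zfp36l1 by 1.09 and Msi2, a translation regulator of progenitors, by 1.25. Zfp36 and Zfp36l1 were highest in HT 3, as were the leukocyte markers, and the groups overlapped for Zfp36l1. Decay factors had 15 of 48 higher (31.2%) and 3 lower (6.2%). The exosome subunits Exosc6 and Exosc9 rose by 1.06 and 0.72 and the decapping protein Dcp1a by 0.80. SR and hnRNP splicing factors had 14 of 43 higher (32.6%) and 1 lower (2.3%), with Srsf12 at 1.16, Hnrnpab at 0.69 and Hnrnpa0 at 0.65. Without HT 1 or HT 2 the counts higher were 8 and 7 for decay and 6 and 6 for splicing factors (7 without HT 3 and 9 without MexHT 4).

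In the chromatin lists the share called higher was also above that of all genes. Of 315 zinc finger (Zfp) genes, many of them encoding KRAB repressors, 111 were higher and 9 lower (median 0.41). Zfp184 was 16.96, 18.3 and 13.4 TPM in HT and 45.5 to 54.1 TPM (median 47.9) in MexHT (log2 difference 1.54, adjusted p 8.57e-05), and Zfp711 and Zfp647 rose by 1.83 and 1.47. Heterochromatin, DNA methylation and lamina genes had 21 of 39 higher and 2 lower. The histone H3 lysine methyltransferase gene Suv39h1 was 10.5, 12.3 and 13.8 TPM in HT and 34.3 to 45.9 TPM (median 38.1) in MexHT, and Uhrf1 and lamin B1 (Lmnb1) rose by 1.08 and 1.01, while the methyltransferase Dnmt3a fell by 0.66. Polycomb and Trithorax genes had 18 of 39 higher and 5 lower, with Ezh2, Jarid2 and Phc1 at 1.27, 1.15 and 0.94 and Pcgf5, Phf1 and Cbx7 at -1.26, -0.95 and -0.87. Without HT 1 and HT 2 the zinc finger count was 67 and 62 higher, and that of heterochromatin genes 13 and 13. The zinc finger count lower was 3, 4 and 4 without HT 1, 2 and 3, that of Polycomb genes 3 without HT 1, and that of heterochromatin genes 4 without MexHT 5.

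Of 45 DNA replication genes 27 were higher and 0 lower, at a median of 0.54. Mcm2, a subunit of the replicative helicase, was 8.59, 10.7 and 15.2 TPM in HT and 35.3 to 101 TPM (median 39.3) in MexHT, with MexHT 5 highest. The licensing factor Cdt1 rose by 1.74 and Mcm6 by 1.31. Mitosis genes had a similar median of 0.60 but only 5 of 38 passed, a share below that of all genes (3 without HT 1, 9 without MexHT 5). Among these 5 were Spc25, Ccnf and Racgap1 at 1.77, 1.36 and 1.20. The mitosis median was 0.29 without MexHT 5 and 0.19 on replicates 1 to 3 alone. In those fits the median of replication genes was 0.44 and 0.49. Replication-dependent histones had 13 of 57 higher (22.8%, near the 19.9% of all genes) at a median of 0.66. Among them were Hist1h3h, Hist1h2ad and Hist1h2ai at 1.36, 1.32 and 1.22. MexHT libraries differed widely here, with a median histone deviation from HT of -0.16 in MexHT 1 and 1.41 in MexHT 5, and without MexHT 1 the count was 31. Leaving out HT 1, 2 and 3 gave 3, 5 and 6 histones and, for replication genes, 14, 18 and 22. These histone genes are near-identical in sequence, so their counts may be split between copies. Markers of neurogenic progenitors, which divide, summed to 405 to 1259 TPM in MexHT and 234 to 323 TPM in HT, and 5 of 15 were called higher. Their part in the rise of replication genes was not tested.

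Genes known as p53 targets had 15 of 35 higher (42.9%) and 3 lower (8.6%), at a median of 0.60. Besides Phlda3, the exonuclease gene Aen was 12.2, 11.8 and 19.1 TPM in HT and 54.5 to 118 TPM (median 59.1) in MexHT (log2 difference 2.26, adjusted p 0.000397), with no overlap. Gtse1 rose by 2.06, whereas the DNA damage-binding gene Ddb2 fell by 1.35, the adenylate kinase gene Ak1 by 0.76 and Ptp4a3 by 0.56. Apoptosis regulators were divided, with 8 of 30 higher and 9 lower. The pro-apoptotic Bax was 63.8, 53.03 and 66.3 TPM in HT and 159 to 301 TPM (median 177) in MexHT (log2 difference 1.68, adjusted p 0.000286), and Bbc3 (PUMA) and Bik rose by 1.06 and 0.80. The survival gene Bcl2l2 fell by 1.74, and Bcl2a1d and Bcl2a1b, survival genes of blood cells, by 2.23 and 2.15 beside the leukocyte markers. The median of p53 targets was 0.37 without MexHT 5 and 6, and the apoptosis count higher was 5 without HT 1 and 4 without HT 2. With the Xist level in the model 4 p53 targets passed, all higher.

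Cholesterol synthesis had the highest share of calls of the 47 pathway lists: 17 of 23 genes were called higher and 0 lower, with a median log2 difference of 0.69. These genes are known to be switched on together by the sterol-sensing factor SREBP-2. The thiolase gene Acat2 was 4.47, 9.32 and 5.34 TPM in HT and 18.5 to 35.6 TPM (median 20.8) in MexHT (log2 difference 1.77, SE 0.26, adjusted p 0.000992). Mvd, which makes the isoprenoid unit isopentenyl diphosphate, was 7.70, 5.95 and 9.98 TPM in HT and 15.9 to 41.1 TPM (median 21.8) in MexHT. Insig1, the ER protein that retains the SREBP complex when sterols are high, was 13.7, 13.97 and 15.3 TPM in HT and 30.4 to 44.6 TPM (median 36.7) in MexHT, and Hmgcs1, the synthase at the entry of the pathway, 68.6, 71.8 and 83.3 TPM and 91.99 to 158 TPM (median 143). The groups did not overlap for any of these 4 genes. The rise was of like size in all MexHT libraries, whose median deviations from HT were 0.61 to 0.71, and HT 3 was the lowest HT library at -0.15. With the Xist level in the model the median was 0.52 and 2 genes passed, and without HT 3 the median was 0.55 with 14 called.

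The promoters of the 3 genes with the largest rises and of Hmgcs1 are shown because these members moved together, as the 250 bases before the gene start in RefSeq (GRCm38.p6). Capitals mark matches, on either strand, to CCAAT (bound by NF-Y), GGGCGG (a GC box, bound by Sp1) and TCACNCCAC (the core of a sterol response element).
Acat2: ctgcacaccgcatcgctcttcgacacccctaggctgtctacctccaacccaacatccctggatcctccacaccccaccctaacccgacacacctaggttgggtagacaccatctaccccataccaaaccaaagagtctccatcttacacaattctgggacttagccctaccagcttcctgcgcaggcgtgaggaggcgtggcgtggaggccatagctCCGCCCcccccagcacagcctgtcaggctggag
Mvd: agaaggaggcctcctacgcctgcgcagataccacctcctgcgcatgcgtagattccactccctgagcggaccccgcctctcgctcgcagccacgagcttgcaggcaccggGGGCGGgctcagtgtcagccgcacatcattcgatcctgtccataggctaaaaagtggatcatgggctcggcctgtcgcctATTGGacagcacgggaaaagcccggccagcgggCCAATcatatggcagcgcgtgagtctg
Insig1: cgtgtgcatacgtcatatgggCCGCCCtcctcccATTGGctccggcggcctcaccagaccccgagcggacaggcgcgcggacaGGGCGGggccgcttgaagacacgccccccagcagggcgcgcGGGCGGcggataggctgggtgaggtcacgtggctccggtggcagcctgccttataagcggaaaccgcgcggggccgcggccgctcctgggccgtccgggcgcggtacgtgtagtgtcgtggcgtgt
Hmgcs1: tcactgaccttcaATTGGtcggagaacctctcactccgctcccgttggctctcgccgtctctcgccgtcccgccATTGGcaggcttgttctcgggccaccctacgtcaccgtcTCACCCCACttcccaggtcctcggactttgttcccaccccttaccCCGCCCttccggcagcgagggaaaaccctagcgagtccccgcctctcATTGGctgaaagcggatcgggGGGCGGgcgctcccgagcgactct
The windows lie at chr17:12960726-12960975 (minus strand), chr8:122443423-122443672 (minus), chr5:28071162-28071411 (plus) and chr13:119690101-119690350 (plus). Of the 23 list genes, 17 had a promoter entry, and 12 of these were called higher. CCAAT was found in 15 of the 17 (88.2%) and in 34.5% of 27025 genes with an entry. GGGCGG was found in 16 (94.1%) against 32.9%, and TCACNCCAC in 1, Hmgcs1, against 1.04%. The 27025 genes were not limited to those expressed here, so they are not a matched background for this list. Of the 12 members called higher, 10 held CCAAT and 11 GGGCGG, so the matches were not particular to the called members. Matches did not overlap in the 4 windows shown, where each run of capitals is 1 match. These are matches of letters and say nothing of binding in these cells.

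Protein quality control and the secretory pathway did not move as a block. Over all genes 19.9% were called higher and 16.8% lower. Proteasome genes had 21 of 43 called higher and 2 lower (median 0.35), with the core subunit Psma5 from 92.6 to 164 TPM, the assembly factor Psmg4 by 0.81 and Psmd13 by 0.74. The 2 called lower, Psmb8 (-1.54) and Psmb10 (-0.72), are immunoproteasome subunits. HT 3, with the most leukocyte transcripts, had the highest Psmb8 at 39.5 TPM, and the part of leukocytes in these falls was not tested. Of 41 chaperonin and heat shock genes 12 were higher (29.3%) and 3 lower (7.3%), with 5 lower without MexHT 5. Among them were Hspe1 at 0.72, Cct5 at 0.66 and Hspa2 at -1.12. The signal recognition particle, translocon and signal peptidase, through which proteins enter the ER, had 11 of 36 higher and 9 lower. Within the signal peptidase complex the catalytic subunit Sec11a was 149, 150.3 and 173 TPM in HT and 261 to 385 TPM (median 283) in MexHT, whereas Spcs3 was 201, 221 and 182 TPM and 41.4 to 67.8 TPM (median 55.7), changes of 0.91 and -1.88 (adjusted p 0.000831 and 8.62e-05). The translocon-associated Ssr2 rose by 0.68 and Tram1 fell by 1.28. Without HT 1 and HT 2 the ER entry counts were 6 and 6 higher and 4 and 5 lower.

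The COPII coat, which carries cargo out of the ER, had 4 of 34 higher and 5 lower, shares at or under those of all genes. Cnih2, a cargo receptor of AMPA glutamate receptors, rose from 54.1 to 111 TPM, while the coat subunit Sec24d, the cargo receptor Mcfd2 and Cnih1 fell by 0.97, 0.83 and 0.70. COPI and Golgi genes had 6 of 31 higher (Arf5 1.04) and 2 lower (Golga4 -0.58), and N-glycosylation genes 4 of 41 higher and 6 lower (Man2a2 -0.95, Stt3b -0.70). The shares higher were 19.4% and 9.8%, and those lower 6.5% and 14.6%, none above those of all genes. Autophagy genes had 13 of 38 higher (34.2%) and 2 lower (5.3%), with Wipi1 at 1.19, Ulk1 at 0.82 and Optn at 0.80. The autophagy count was 8 without HT 2 and 7 without HT 3. Without HT 1 and HT 2, 2 and 1 COPII genes were higher, and 1 and 1 glycosylation genes were higher with 3 lower (3 also without HT 3). Without MexHT 5, 4 COPI and Golgi genes were lower.

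In energy metabolism, respiratory genes had few calls lower and glycolytic genes few calls higher, against 19.9% of all genes called higher and 16.8% called lower. Complex I had 10 of 44 higher and 1 lower (median 0.20; Ndufb2 0.82, the assembly factor Ndufaf6 0.85), complexes II to IV 3 of 29 higher and 0 lower, and ATP synthase 5 of 17 higher and 1 lower. The shares higher were 22.7%, 10.3% and 29.4%, and those lower 2.3%, 0% and 5.9%. The counts higher were 5, 1 and 2 with median-of-ratios scaling and 3, 1 and 2 with voom. Of complexes II to IV, 5 genes were higher without MexHT 5 and 1 without any 1 of HT 1 to 3 or of MexHT 2, 3, 4 and 6. Glycolysis had 1 of 19 higher and 9 lower (median -0.22). Hk2, an inducible hexokinase, was 20.01, 11.1 and 31.4 TPM in HT and 2.63 to 9.24 TPM (median 4.04) in MexHT, Pfkfb3, which makes an activator of phosphofructokinase, fell by 1.30 and Pgam1 by 1.02, and the hexokinase Hk1 rose by 0.41. The complex I count was 4, 3 and 5 without HT 1, 2 and 3, 17 without MexHT 5 and 6 without MexHT 2, and the ATP synthase count was 2 without any 1 HT library. HT 3, the library with the most leukocyte transcripts, was the highest for Hk2 and for Pfkfb3, whose groups overlapped, and the part of leukocytes was not tested. With the Xist level in the model the glycolysis median was -0.39, with 0 genes called higher and 1 lower.

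**Figure D3:**
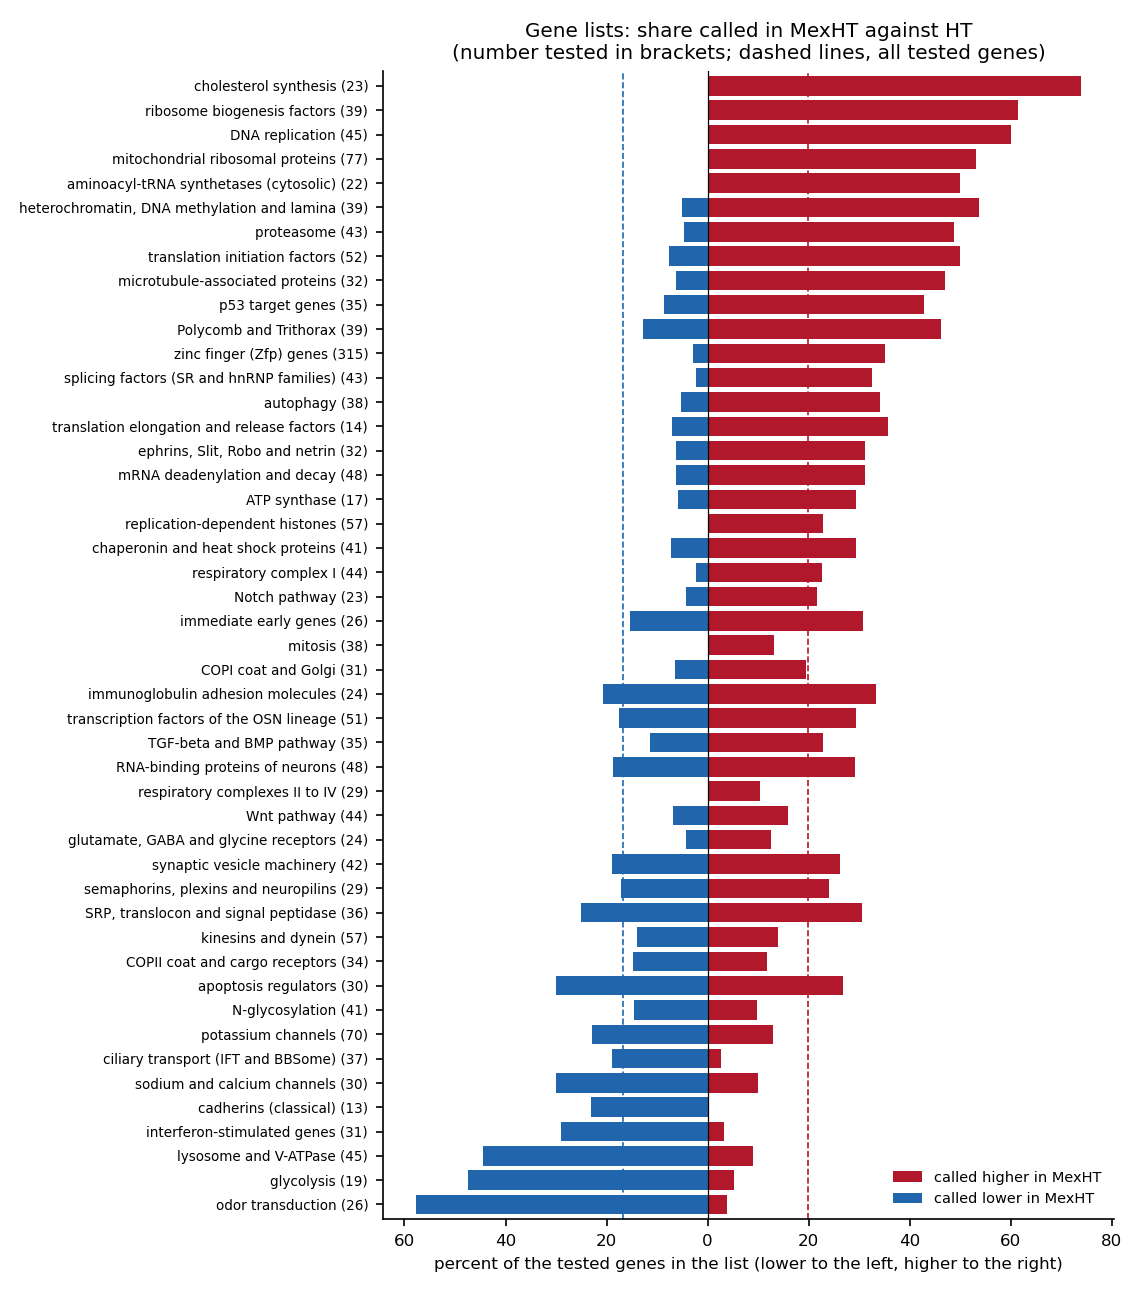
Share of the tested genes in each of 47 lists called higher (red, to the right) or lower (blue, to the left) in MexHT, ordered by the difference of the 2 shares, with the number tested in brackets. Dashed lines mark the 19.9% and 16.8% of all tested genes, and cholesterol synthesis (17 of 23) and odor transduction (15 of 26) lie at the ends.

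Genes of axon growth and guidance held both large rises and large falls. Microtubule-associated proteins had 15 of 32 higher (46.9%) and 2 lower (6.2%), at a median of 0.46. Mapt, the axonal protein tau, was 17.2, 19.7 and 44.6 TPM in HT and 107 to 241 TPM (median 159.9) in MexHT (log2 difference 2.57, SE 0.32, adjusted p 0.00041), and the growth cone proteins Dpysl5 and Dpysl3 rose by 1.43 and 1.16, while Tppp and Map7 fell by 0.82 and 0.64. Ephrin, Slit, Robo and netrin genes had 10 of 32 higher (31.2%) and 2 lower (6.2%). The ephrin ligand gene Efnb1 was 3.02, 3.13 and 4.16 TPM in HT and 14.9 to 29.6 TPM (median 18.7) in MexHT, its receptor Ephb2 rose by 2.35 and Epha3 by 1.58, and Slit1 and the netrin receptor Unc5b fell by 0.81 and 0.78 (5 lower without MexHT 5). Semaphorins and plexins had 7 of 29 higher (24.1%) and 5 lower (17.2%), near the 19.9% and 16.8% of all genes. The repellent ligand Sema3a was 14.9, 12.7 and 17.1 TPM in HT and 35.2 to 48.9 TPM (median 42.5) in MexHT (log2 difference 1.44, adjusted p 0.000119), whereas Sema3e and the receptors Plxna3 and Plxnb3 fell by 1.31, 1.39 and 2.09. Motor proteins had 8 of 57 higher and 8 lower, 14.0% each. The kinesin heavy chain Kif5b was 451, 514 and 362 TPM in HT and 125 to 202 TPM (median 159.8) in MexHT, and the dynein light chain Dynlt3 fell by 1.88, while the kinesin light chain Klc1 and Dynll1 rose by 0.53 and 0.60. Without HT 1 the motor count higher was 3, without HT 2 or MexHT 3 it was 5, and without MexHT 5 and 6 together 14.

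Adhesion genes of the immunoglobulin family had 8 of 24 higher (33.3%) and 5 lower (20.8%), against 19.9% and 16.8% of all genes. Nrcam and Chl1, L1-type axon adhesion proteins, rose by 1.55 and 1.36 beside Cntn2, and Ncam2, an adhesion protein of OSN axons, fell from 238 to 73.9 TPM beside Nphs1 and Kirrel. Of 13 cadherin (Cdh) genes 0 were higher and 3 lower (23.1%), with Cdh23 at -2.16, Cdh26 at -1.99 and Cdh3 at -1.43. The cadherin count higher was 3 without MexHT 5 and 1 without MexHT 6. Synaptic vesicle genes had 11 of 42 higher (26.2%) and 8 lower (19.0%), against 19.9% and 16.8% of all genes. The synaptotagmin gene Syt2 rose by 1.88. Slc17a6, the vesicular glutamate transporter VGLUT2 of OSN, was 291, 350.2 and 255 TPM in HT and 66.3 to 120.3 TPM (median 103) in MexHT, and the vesicle proteins Sv2b and Sv2c fell by 1.36 and 1.30, while Slc17a7, VGLUT1, rose by 1.46 from a low level of 2.25 TPM with overlapping groups. Without HT 2 the immunoglobulin count higher was 5. The synaptic count higher was 7 without HT 1 and 7 without HT 3, and 5 synaptic genes were lower without HT 2.

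Potassium, sodium and calcium channel genes had more calls lower than higher, but individual channels rose several-fold. Of 70 potassium channel genes 9 were higher (12.9%) and 16 lower (22.9%), against 19.9% and 16.8% of all genes. Kcnc1, the fast-spiking channel Kv3.1, was 1.61, 2.36 and 1.86 TPM in HT and 13.2 to 18.1 TPM (median 13.99) in MexHT (log2 difference 2.40, SE 0.17, adjusted p 5.57e-05). Kcns3, Kcnk13 and Kcnq1 fell by 2.23, 1.88 and 1.51. Sodium and calcium channels had 3 of 30 higher and 9 lower. The calcium channel subunits Cacnb1 and Cacng4 went from 17.05 to 63.3 TPM and from 109.6 to 290.3 TPM, whereas Scn9a, the main sodium channel of OSN, was 543, 541 and 384 TPM in HT and 107 to 277 TPM (median 199) in MexHT, and Scn2a1 fell by 1.17. Transmitter receptors had 3 of 24 higher (12.5%) and 1 lower (4.2%), both below the shares of all genes. Grin3b, Gabra3 and Grin1 rose by 1.22, 1.17 and 0.97, and Gabbr1 changed by -0.60. The receptor count higher was 10 without MexHT 5 and 6 (5 without either), but 1 without HT 1 and 1 without HT 2. Without HT 1 and HT 2 the potassium channel counts were 5 and 4 higher and 10 and 9 lower, and without HT 1 4 sodium and calcium channels were lower. Without HT 3 or MexHT 6, 5 of these channels were higher.

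Of the 47 pathway lists, odor transduction had the highest share of calls lower, 15 of 26 with 1 higher and a median of -1.15. Adcy3, the adenylyl cyclase of olfactory cilia, was 1088, 991 and 693 TPM in HT and 56.96 to 243 TPM (median 151) in MexHT. The channel subunit Cnga4 and the calcium exchanger Slc24a4 fell by 2.48 and 2.09, while Gnas, the ubiquitous relative of the olfactory G protein Gnal, rose from 51.6 to 126 TPM. Genes of ciliary transport had 7 of 37 lower and 1 higher (Bbs1 -1.16, Ift80 -0.79, Wdr35 -0.72, Ift27 0.71), a share near the 16.8% of all genes. MexHT 5 and 6 were the lowest libraries of both lists, at medians of -1.82 and -1.42 for odor transduction and -0.64 and -0.50 for ciliary transport, against -1.10 to -0.64 and -0.22 to -0.06 in MexHT 1 to 4. HT 1, 2 and 3 were at 0.16, 0.17 and -0.32 for odor transduction and at 0.10, 0.09 and -0.21 for ciliary transport, where HT 3 lay below MexHT 1, 2 and 3 and the groups overlapped. On replicates 1 to 3 alone the odor transduction median was -0.70, and 2 and 1 ciliary genes were lower without HT 1 and HT 2 (4 without MexHT 4).

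Transcription factors of the OSN lineage had 15 of 51 higher (29.4%) and 9 lower (17.6%), against 19.9% and 16.8% of all genes. Neurod1, a factor of late progenitors, rose by 1.98 and St18 by 1.57, and Rfx4, Runx1 and the neuronal gene repressor Rest fell by 1.85, 1.45 and 1.22. Immediate early genes had 8 of 26 higher (30.8%) and 4 lower (15.4%). Npas4, induced by neuronal activity, was 7.21, 7.73 and 4.48 TPM in HT and 22.1 to 36.3 TPM (median 27.96) in MexHT, and Egr4 and Fosl1 rose by 1.86 and 1.70, while Ier3 and Ier2 fell by 2.01 and 0.86 along with S100a5 (2 lower without HT 1). In the Notch pathway 5 of 23 were higher (Maml3 1.83, Mfng 1.80, the ligand Dll1 1.46) and 1 lower (Notch2 -1.42). Wnt genes had 7 of 44 higher, with the feedback inhibitors Nkd1 and Axin2 at 1.39 and 0.92, and 3 lower. TGF-beta and BMP genes had 8 of 35 higher (Tgfb2 1.34) and 4 lower (the receptors Tgfbr2 -2.23 and Bmpr2 -1.37, Tgfb1 -1.64). The shares higher were 21.7% for Notch, 15.9% for Wnt and 22.9% for TGF-beta and BMP genes, near the 19.9% of all genes. Runx1, Rest, Ier3, Notch2, Tgfbr2 and Tgfb1 were all highest in HT 3, where leukocyte markers were highest too, and the groups overlapped for Runx1, Rest and Notch2. The part of leukocytes in these falls was not tested. Without HT 1 or HT 2 the counts higher fell to 3 for Notch and 5 for TGF-beta, and without HT 2 to 4 for Wnt. Without MexHT 5, 3 Notch and 5 Wnt genes were lower, and without HT 1, 1 Wnt gene.

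Of 45 lysosome and V-ATPase genes 20 were called lower and 4 higher (median -0.503), against 16.8% of all genes called lower. Lgmn, the lysosomal protease legumain, was 438, 396 and 834 TPM in HT and 101 to 136 TPM (median 123) in MexHT (log2 difference -2.13, adjusted p 0.000135). The 4 members called higher were subunits of the proton pump, with Atp6v1g2, its neuronal form, at 0.83, Atp6v1g1 at 0.64 and Atp6v1h at 0.38 (2 without HT 1 or HT 3). Of 31 interferon-stimulated genes 9 were lower (29.0%) and 1 higher (3.2%), at a median of -0.53. By library the interferon medians overlapped, with HT 2 at -0.33 and MexHT 5 at -0.20. The antiviral GTPase gene Mx2 was 9.63, 9.98 and 9.004 TPM in HT and 0.596 to 1.87 TPM (median 0.746) in MexHT, Parp14 and Ifit2 fell by 1.92 and 1.49, and Ifitm2 rose by 1.36. Leukocyte markers were also lower in MexHT (14 of 16 called lower, summed level 407 to 779 against 1799 to 6650 TPM), HT 3 had the highest lysosomal median, and the part of leukocytes in these falls was not tested. Without HT 3 the medians were -0.41 and -0.27, with 15 lysosomal and 8 interferon-stimulated genes lower, and without MexHT 5 and 6 15 interferon-stimulated genes were lower.

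**Figure D4:**
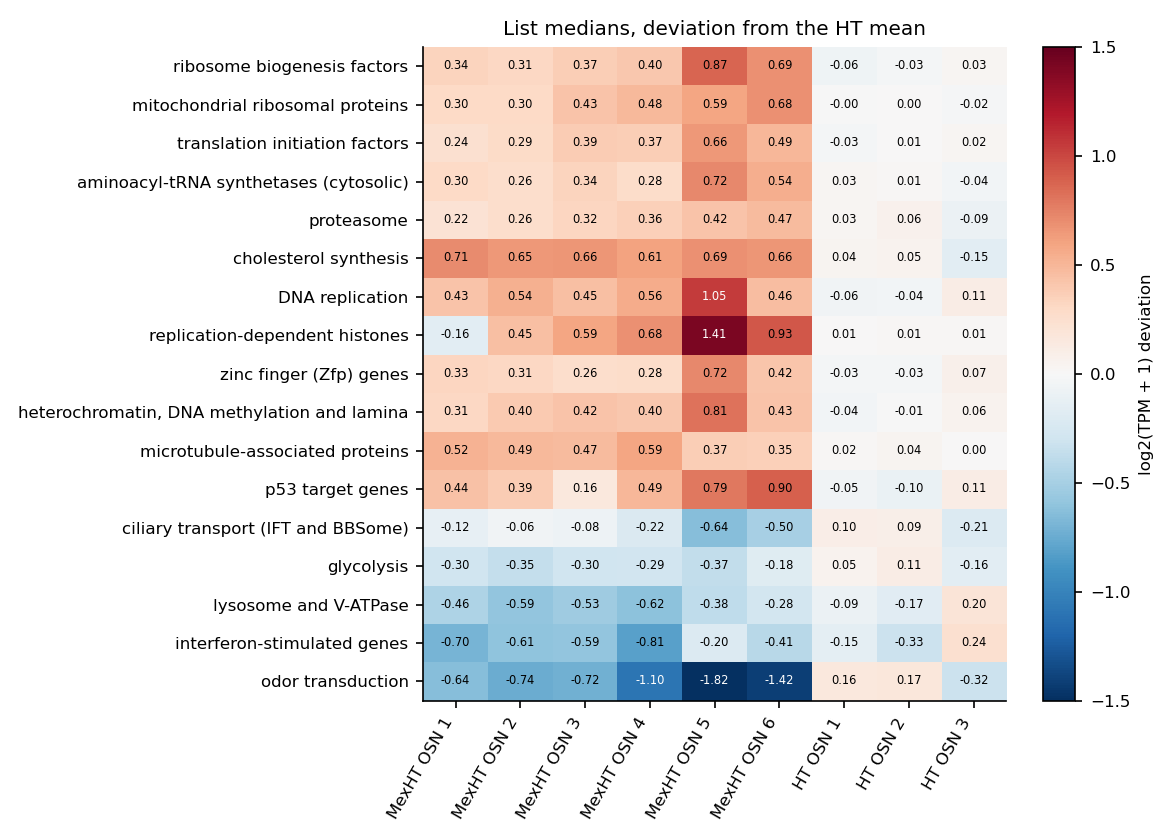
Median deviation of 17 gene lists from the mean of the 3 HT libraries, in log2(TPM + 1), for each of the 9 libraries (columns); red is higher and blue lower, with the value in each cell. Cholesterol synthesis is even across MexHT (0.61 to 0.71), whereas histones run from -0.16 in MexHT 1 to 1.41 in MexHT 5 and odor transduction from -0.64 to -1.82.

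Beyond the written lists, the symbols were grouped by their letters before the first digit, a grouping chosen after the first results were seen. Of 125 such families with at least 12 tested genes and names of at least 3 letters, those with the highest shares called higher were Nup (nucleoporins, 14 of 21, 0 lower), Lsm (RNA-ring proteins of splicing and decay, 8 of 13, 0 lower), Mrpl (28 of 48), Polr (RNA polymerase subunits, 16 of 28, 1 lower) and Psmd (proteasome lid and base, 8 of 14). General transcription factors of the Taf family had 10 of 22 higher and 0 lower. The highest shares called lower were in Pcdha (alpha-protocadherins, 8 of 12) and Clec (C-type lectins, 10 of 15), then Ccl (chemokines, 8 of 15) and Cfap (cilia and flagella proteins, 9 of 17). Many Clec and Ccl genes are expressed by leukocytes, whose markers were also lower in MexHT. Without HT 2 the counts were 9 for Nup, 5 for Lsm, 17 for Mrpl, 8 for Polr, 5 for Psmd and 4 for Taf, and 1 for Pcdha, 9 for Clec, 4 for Ccl and 4 for Cfap. By RefSeq class, 21.4% of 13822 protein-coding genes were higher and 17.1% lower, whereas 7.1% of 835 long noncoding RNAs were higher and 19.8% lower. Without HT 2 those shares were 13.6% and 12.2% for protein-coding genes and 4.7% and 12.2% for long noncoding RNAs. Called genes were of like length, at a median of 2736 bases for those higher, 2921 for those lower and 2714 for all tested.

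The mCherry-negative cells of the same mouse lines were the background for these differences. There, limma called 0 of 16860 genes (0%) between MexHT and HT, with 3465 at an unadjusted p under 0.05, and the alternatives run called 0 to 4. Those 3465 are more than a threshold of 0.05 gives on average without any difference. The 0 calls thus do not show that MexHT and HT negative cells were alike. Over all 17 libraries the construct difference depended on the fraction for 2086 of 16785 genes (12.4%) in a test of the interaction. It did for 3398 (20.2%) with same-numbered libraries of the 2 fractions and the same construct treated as 1 block. The labels do not say whether a library held 1 mouse or more. Of the 5864 called genes in the interaction fit, 1825 passed the interaction, and 2619 passed with that block. Among the 49 genes named for their size of change, 22 passed (25 with the block). Called and named genes were picked by the mCherry-positive difference, which is part of the interaction, so these counts are not independent support. Without HT Neg 2 the interaction count was 1195.

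Most of the rises with the largest folds were larger in the sorted neurons than in the negative cells. These genes were chosen for large differences in the mCherry-positive libraries, which the interaction also uses, so the choice itself favors a larger difference there. Phlda3 was 7.69 ± 3.04 TPM in HT and 16.3 ± 12.6 TPM in MexHT negative cells (mean ± SD, n = 3 and n = 5), a log2 difference of 0.81, and the interaction was 3.97 (limma adjusted p 0.00197). Mex3a differed by 1.13 in the negative cells, with an interaction of 2.55 (adjusted p 0.0204). The interaction also passed for Pcp4, Cntfr, Fam212b, Vcan, Cntn2, Igsf21, Acot7, Pdxp, Armcx4, Camk2b and Rasl10b. It missed for Cbln2 (adjusted p 0.176) and, at 0.0536, for Ndn, which passed with same-numbered libraries as a block (0.0165). The falls were of 2 kinds. For Kirrel, Creb3l1, Rgs1, Fcrls, Trem2, Apoe and Ctsd the interaction passed, and Creb3l1 was 146 ± 12.6 TPM in HT and 129 ± 27.5 TPM in MexHT negative cells. For Fate1, Pth2, Nphs1, Pcdhb1, Stmnd1 and the mature neuron products Omp, S100a5, Stoml3, Chga, Stom and Gfy the interaction did not pass, and values in negative cells were lower in MexHT too, as for Gfy at -1.30 and Pcdhb1 at -2.11. A missed threshold does not show that these differences were equal in the fractions. Mature OSN markers summed to 708 to 15903 TPM over the 8 negative libraries, so these also held OSN transcripts.

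**Figure D5:**
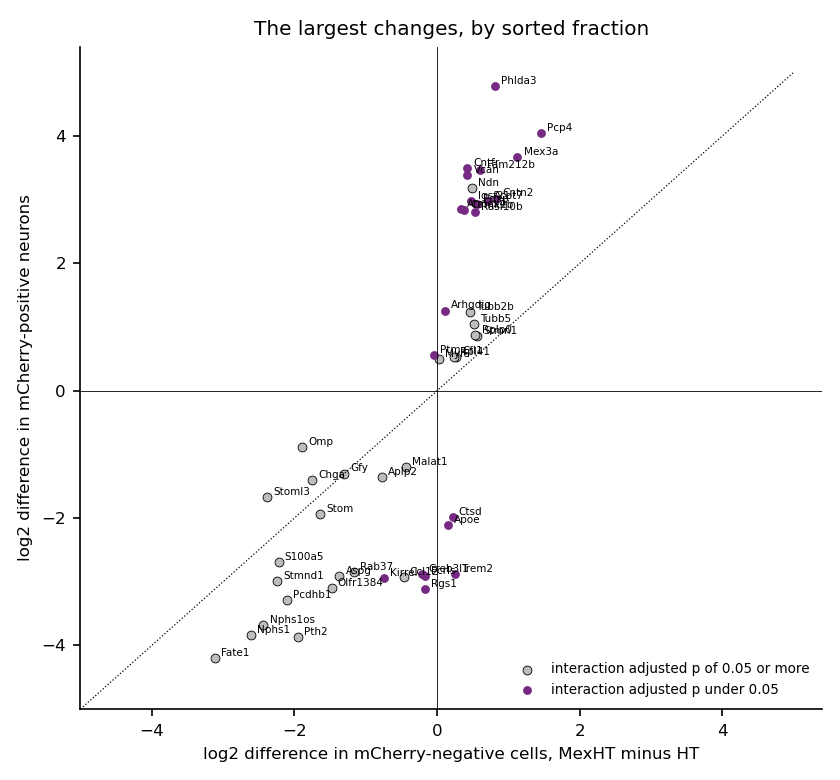
Log2 difference between MexHT and HT in mCherry-negative cells (horizontal) against that in mCherry-positive neurons (vertical). Shown are the 48 of the 49 genes named for their size of change that have a value in both. Purple points passed the interaction test, and the dotted line marks equal differences; Phlda3 lies at 0.81 and 4.78, and Gfy lies on the line at -1.30 in both.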

How the data were processed

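Total RNA of sorted cells (main olfactory epithelium, papain digestion) was made into libraries with a stranded total RNA kit (SMARTer, Pico input), per the labels' protocols. The authors deposited TPM values per gene. The submitters' processing notes name FastQC, cutadapt, STAR, bedtools and mm10, without versions. Their settings are not given in the sources used here. TPM steps gave back whole counts for 23613 of 23614 genes (tolerance 0.002), which were used only for depth, floors and the voom alternative. The table of gg8tTA-only mice was not used here, and 27 genes whose symbols had become dates were left out.

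Genes whose mean reached 1 TPM were compared with limma 3.58.1 (R 4.3.3) on log2(TPM + 1), with a trended prior and Benjamini-Hochberg adjustment at 0.05. A fold change on this scale understates the change of low genes. Groups came from the labels: 6 MexHT and 3 HT mCherry-positive libraries, and 5 and 3 mCherry-negative libraries. The interaction used all 17. Single library values were compared with the exact permutation test (84 splits).

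The comparison, its gene lists and its markers were chosen with earlier results of these data known. Named genes were Mex3a, the 15 largest rises and 15 largest falls by fold, the 10 largest in each direction by TPM, and up to 3 per list and direction. By fold and by TPM they had to be called, to reach 5 TPM in the higher group and not to overlap. Predicted genes and RNA loci were passed over. Some genes that the rule picked from the lists are not reported here. Other genes named in the text, such as Hmgcs1 and Xist, were chosen after their values were seen.

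Same-numbered mCherry-negative libraries deviated together (correlations of 0.34, 0.42 and 0.23 across genes, against -0.399 to 0.015 for other pairs). What the number stands for is not given in the labels. The fit with the number as a block also called 0 genes. Alternatives covered scaling, pseudocount, filter, weights, the Xist level, voom, blocks and leaving out each library.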

Additional observations from a re-analysis of the deposited data

Results flagged for a closer look

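In the MexHT group of 6 mCherry-positive libraries, 1 library lay far from the others for 19 of the genes named above, by the gap to its neighbor divided by the range of the group (Dixon's 95% value, 0.625). Chance flags about 1 in 20 groups, so with this many named genes much of the 19 may be chance. MexHT 5 was the highest library for Ccnf (26.5 TPM), Eif2ak3 (144 TPM), Mex3a (1271 TPM), Mex3b (188 TPM), Pfkfb3 (13.1 TPM), Racgap1 (109.8 TPM), Rest (7.05 TPM), Runx1 (17.4 TPM), St18 (41.5 TPM) and Ulk1 (97.4 TPM). It was the lowest library for Cntn2 (25.1 TPM) and Omp (682 TPM). MexHT 4 was the highest for Dynll1 (225 TPM), Gnas (166 TPM) and Phc1 (195 TPM). MexHT 6 was the highest for Ift27 (251 TPM), Kcnc1 (18.1 TPM) and Mrpl35 (32.9 TPM). MexHT 1 was the highest for Mx2 (1.87 TPM).

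The difference between MexHT and HT was higher in mCherry-positive than in mCherry-negative cells, by the test of the interaction (limma adjusted p under 0.05), for Phlda3 (3.97), Cntfr (3.08), Vcan (2.97), Fam212b (2.86), Pcp4 (2.59), Mex3a (2.55), Armcx4 (2.53), Igsf21 (2.497), Camk2b (2.46) and Pdxp (2.38). Positive interactions of smaller size were found for Rasl10b (2.27), Acot7 (2.27), Cntn2 (2.19), Celf5 (2.09), Kcnc1 (2.005), Efnb1 (1.98), Cacnb1 (1.91), Ephb2 (1.67), Epha3 (1.67) and Mapt (1.67). A further set of genes with positive interactions held Aen (1.66), Maml3 (1.496), Srsf12 (1.49), Cacng4 (1.49), Atp6v1g2 (1.48), Bax (1.48), Npas4 (1.48), Acat2 (1.36), Cnih2 (1.32) and Sema3a (1.28). Below these came Zfp184 (1.25), Arhgdig (1.15), Zfp647 (1.10), Ift27 (1.03), Grin3b (1.02), Ndufaf6 (0.95), Klc1 (0.88), Phc1 (0.86), Atp6v1g1 (0.83) and Eif2ak3 (0.79). The remaining positive values were Yars (0.75), Sec11a (0.72), Mrpl35 (0.69), Psma5 (0.67), Ptms (0.61), Mrpl22 (0.59), Psmd13 (0.58) and Dynll1 (0.54). Values are differences of log2 differences. The genes of this list and the next were named from their mCherry-positive difference, so their choice favors such interactions.

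The interaction was negative, with the MexHT difference lower in mCherry-positive cells, for Trem2 (-3.12), Rgs1 (-2.95), Bcl2a1d (-2.89), Bcl2a1b (-2.84), Fcrls (-2.73), Creb3l1 (-2.68), Tgfbr2 (-2.52) and Ier3 (-2.503). Smaller negative interactions were found for Hk2 (-2.40), Apoe (-2.25), Tgfb1 (-2.22), Ctsd (-2.20), Kirrel (-2.19), Runx1 (-2.08), Psmb8 (-2.08) and Kcnk13 (-2.06). Negative values also passed for Zfp36 (-1.87), Notch2 (-1.87), Zfp36l1 (-1.75), Mx2 (-1.65), Rest (-1.65), Dynlt3 (-1.505), Tram1 (-1.49) and Lgmn (-1.45). The remaining negative values were Eif2ak2 (-1.44), Parp14 (-1.44), Spcs3 (-1.44), Kif5b (-1.15), Psmb10 (-0.98), Bmpr2 (-0.84), Mcfd2 (-0.69) and Sec24d (-0.63).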

How the results depend on the processing

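The number of genes called between MexHT and HT neurons, 5907, was 329 with the Xist level in the model and 8972 with array weights, and it ran from 3745 to 6506 when 1 library was left out, the lowest without HT 1. The cause was not tested. Scaling, pseudocount, filter, voom and a fit of all 4 groups gave 5316 to 6247. Higher and lower calls were 3202 and 2705, 2931 and 2914 with median-of-ratios scaling, 2571 and 3140 with voom, and 2940 and 3307 with no filter. Of the 271 genes named by rule, none changed direction under any alternative run. Their calls were lost for 228 with the Xist level, for 60, 53 and 36 without HT 1, 2 and 3, and for 4 to 16 without 1 MexHT library. In mCherry-negative cells 1 gene was called with no filter and 0 to 4 with 1 library left out. The interaction count, 2086, was 3398 with same-numbered libraries of the 2 fractions as a block and 1195 to 2483 with 1 library left out. The Mex3a difference, 3.67 on the log2 scale, was 3.39 to 4.05, and the difference in genes at 1 TPM was -1707 to -625 with 1 library left out. Both lost the exact permutation call without any 1 HT library, where the smallest adjusted p reached was 0.0714. The groups did not overlap for either value, so each p was the lowest that the libraries left allow. The lost call alone does not show a weaker difference. The share of TPM in the 100 highest genes differed by -1.33 to -0.927 percentage points and passed only without MexHT 6 (-1.33).

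Same-numbered mCherry-positive libraries did not deviate together (correlations of 0.12, 0.13 and -0.23, against -0.192 to 0.198 for other pairs). HT 3 was negative with each of MexHT 1 to 3, so these values cannot show whether same-numbered libraries share a batch. The replicate block on replicates 1 to 3 called 4758 genes, against 6164 unblocked on the same 6 libraries. It gave a Mex3a difference of 3.20 and -1236 genes at 1 TPM, with an exact p of 0.25, the smallest 3 pairs allow. The block changed no call in mCherry-negative cells.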
